A study of Mus musculus with 6 samples.

Results

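Messenger RNA of 10 apolipoproteins that the liver secretes into plasma (Apoa1, Apoa2, Apoa4, Apoa5, Apob, Apoc1, Apoc2, Apoc3, Apoe and Apoh) was measured in mouse liver after knockdown of the long non-coding RNA Hnf1aos1. The genes were chosen by symbol, as a family, with earlier results of these data known, and all 10 were found among the 40803 mouse genes of the count table. Liver RNA was sequenced from 6 male C57BL6 mice, 3 in the group labelled rAAV8-Scramble (the scramble group) and 3 in the group labelled rAAV8-Hnf1aos1 (the knockdown group), with 1 library per mouse. All animals were normally fed, were about 6 weeks old when virus was given by tail vein, and gave liver 4 weeks later. Both groups received recombinant adeno-associated virus 8, a vector that enters hepatocytes, with a U6 promoter driving either a scrambled hairpin RNA or a hairpin against Hnf1aos1 and a CAG promoter driving EGFP. Neither promoter is particular to 1 cell type, whole liver was taken, and no group without virus is part of the comparison.

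Apolipoproteins are the protein coat of the particles that carry triglyceride and cholesterol through the blood. Apolipoprotein B is the non-exchangeable scaffold of chylomicrons, very low density lipoprotein (VLDL) and low density lipoprotein, while apolipoproteins A-I and A-II are the main surface proteins of high density lipoprotein (HDL). The small C apolipoproteins and apolipoprotein A-V set how fast lipoprotein lipase removes triglyceride from a particle, and apolipoprotein E is the ligand by which remnant particles are taken up. In the mouse most plasma cholesterol travels in HDL, and hepatocytes make nearly every one of these proteins, with the intestine as the other main source of apolipoproteins A-I, A-IV and B. Many of the genes lie in clusters and depend on liver transcription factors such as HNF4α.

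The libraries held 14704746 to 19462398 counts on mouse genes, and synthetic spike-in RNA made up 1.18 to 1.52% of all counts. Every member had at least 655 normalized counts in every library. Normalized counts here are raw counts divided by the library size after TMM scaling, a trimmed-mean method that sets most genes to no change, and brought to the mean library size. The target, Hnf1aos1 (chromosome 5, 114968784 to 114998042, GRCm38), stood at 512, 491 and 620.3 normalized counts in the scramble livers and at 278, 258 and 433 in the knockdown livers. Its groups did not overlap, and its log2 fold change was -0.74 (SE 0.195). The adjusted p was 0.0625 in edgeR's quasi-likelihood test, above the limit of 0.05 used for a call. The study reports a significant reduction of Hnf1aos1 in liver by RT-qPCR with more mice per group. It also presents normalized counts of Hnf1aos1 from the sequencing as efficient knockdown. Annotated genes without a row in the count table overlap Hnf1aos1 on the same strand. The strand setting of the counting is not given in the sources used here.

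Of the members 3 had an unadjusted p under 0.05, and none reached an adjusted p under 0.05. Apoa1 and Apob were higher in each knockdown liver than in every scramble liver, Apoa2 was lower in each, and the groups of the other 7 genes overlapped. By count, 0 of the 10 members were called by edgeR, where 6.32% of all 16327 genes tested were called, and 3 of 10 had an unadjusted p under 0.05, where 23.4% of all genes did. The 3 of 10 members whose groups did not overlap compare with 28.9% of all genes. In all, 7 of the 10 members had a log2 fold change above 0, where 8155 of the 16327 genes tested did. The median over the 10 was 0.17 against -0.0004 over all genes tested. The study's text on the same animals lists Apoa1 and Apoa2 as dysregulated without a direction. It reports Apob, also by RT-qPCR, and Apoe as upregulated. Apoe did not show that direction here (log2 fold change -0.02, adjusted p 0.952 by edgeR). The values of these 4 genes here are not independent evidence of a direction.

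Transcript levels were compared between genes in TPM, which divides by transcript length. In the scramble livers Apoa2 (5851 to 6567 TPM) and Apoa1 (5548 to 5932 TPM) headed the order, and their ranges overlapped. Apoe (4107 to 4403 TPM), Apob (2767 to 3123 TPM) and Apoc1 (2429 to 2487 TPM) followed, each with a range apart from its neighbours. Apoc3 (2029.8 to 2304 TPM) and Apoh (2023 to 2106 TPM) overlapped each other, Apoa5 (439 to 518 TPM) stood alone, and Apoc2 (109 to 141 TPM) overlapped Apoa4 (76.9 to 111 TPM) at the bottom. By these values Apoc2, which encodes the activator of lipoprotein lipase, was the lowest of the C apolipoproteins measured and Apoa4 the lowest of the A apolipoproteins. The level of Apoc2 is uncertain, because an annotated gene without a row in the count table overlaps it on the same strand. In the knockdown livers Apoa1 headed the order by itself (6693 to 7775 TPM), and Apoa2 (3754 to 4978 TPM) lay within reach of Apoe (3461 to 4439 TPM), which in turn overlapped Apob (3429.9 to 3699 TPM). Apoc3, Apoc1 and Apoh then overlapped from one to the next, and the lower places were unchanged in order. Among all genes by TPM, Apoa1 ranked 21 to 26 in scramble and 17 to 19 in knockdown libraries, while Apoa2 ranked 19 to 23 and 27 to 36.

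**Figure D1:**
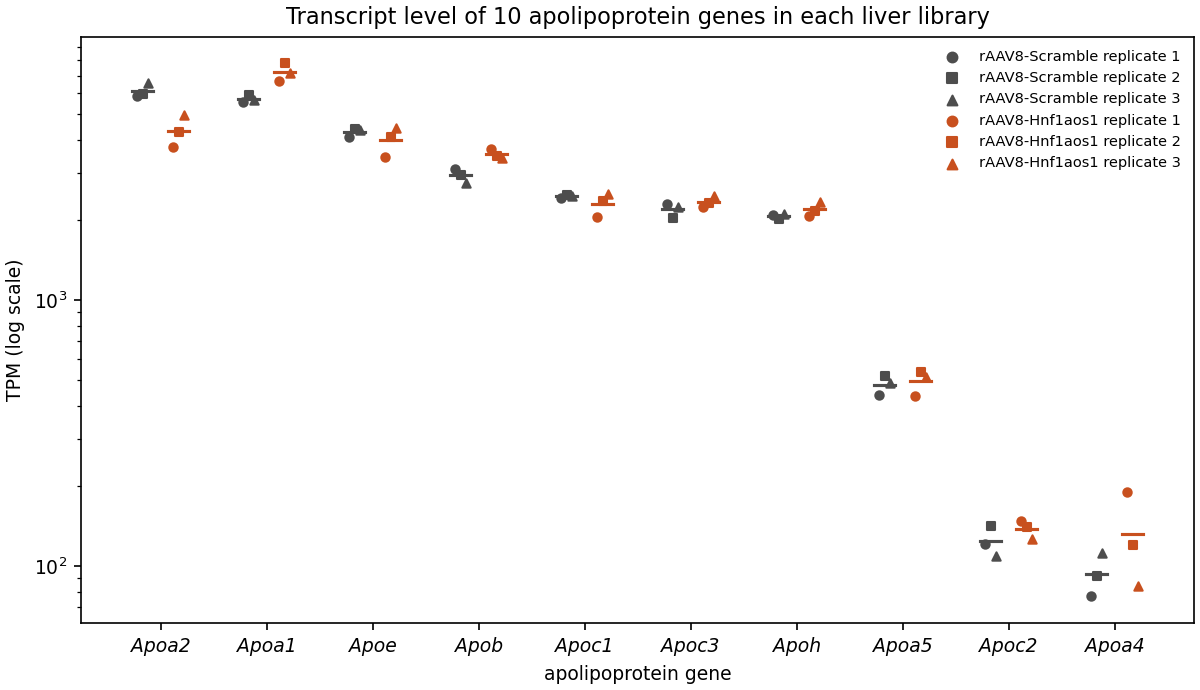
TPM (log scale) of the 10 apolipoprotein genes, 1 point per library and a bar at each group mean, ordered by the scramble mean, with rAAV8-Scramble in grey and rAAV8-Hnf1aos1 in orange. Levels run from 76.9 to 190.0 TPM for Apoa4 and Apoc2 to 5548 TPM or more for Apoa1 and Apoa2 in the scramble libraries, and the grey and orange points separate for Apoa2, Apoa1 and Apob.

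Apoa1 encodes apolipoprotein A-I, the main protein of HDL and the activator of the cholesterol-esterifying enzyme LCAT. The scramble livers held 42526, 45966 and 41724 normalized counts and the knockdown livers 51509, 63623 and 58229. All 3 knockdown values lay above the scramble range, with replicate 1 nearest to it. The group means were 43405 ± 2254 and 57787 ± 6069 (SD, n = 3), and edgeR gave a log2 fold change of 0.41 (SE 0.115, 95% interval 0.16 to 0.67), or 133% of the scramble level, with an adjusted p of 0.0581. Over the alternative fits its fold change ran from 0.33 to 0.61 and its adjusted p from 0.00551 to 0.212, with 4 of 16 fits calling it higher.

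Apoa2 encodes apolipoprotein A-II, the other structural protein of HDL, and its fold change had the opposite sign. The scramble livers held 42487, 43856 and 45659 normalized counts and the knockdown livers 27366, 33168 and 38285. Every knockdown value was below every scramble value, and the knockdown livers were spread more widely, with a coefficient of variation of 16.6% against 3.62%. The means were 44001 ± 1591 and 32939.6 ± 5463 (SD, n = 3), a log2 fold change of -0.42 (SE 0.130, 95% interval -0.70 to -0.13) or 74.9% of the scramble level, with an adjusted p of 0.0796 by edgeR. The alternatives gave fold changes of -0.54 to -0.21 and adjusted p-values of 0.00481 to 0.308, and 4 of 16 fits called Apoa2 lower.

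The ratio of Apoa1 to Apoa2 within a library does not depend on how libraries are scaled. In TPM it was 0.948, 0.993 and 0.866 in the scramble livers and 1.78, 1.82 and 1.44 in the knockdown livers. In TPM, Apoa1 was thus below Apoa2 in each scramble liver and above it in each knockdown liver. Which side of 1 a ratio falls on depends on the transcript lengths used for TPM, whose computation is not described. The mean ratio was 0.936 ± 0.0645 and 1.68 ± 0.208 (SD, n = 3), 1.80 times as high in the knockdown group. This ratio was chosen after the values were seen, and so was that of Apoa2 to Apoe, at 1.42, 1.36 and 1.51 against 1.08, 1.04 and 1.12, again without overlap; neither was tested. The ratio of Apoa1 to Apob overlapped between the groups, with means of 1.95 ± 0.150 and 2.05 ± 0.217 (SD, n = 3).

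**Figure D2:**
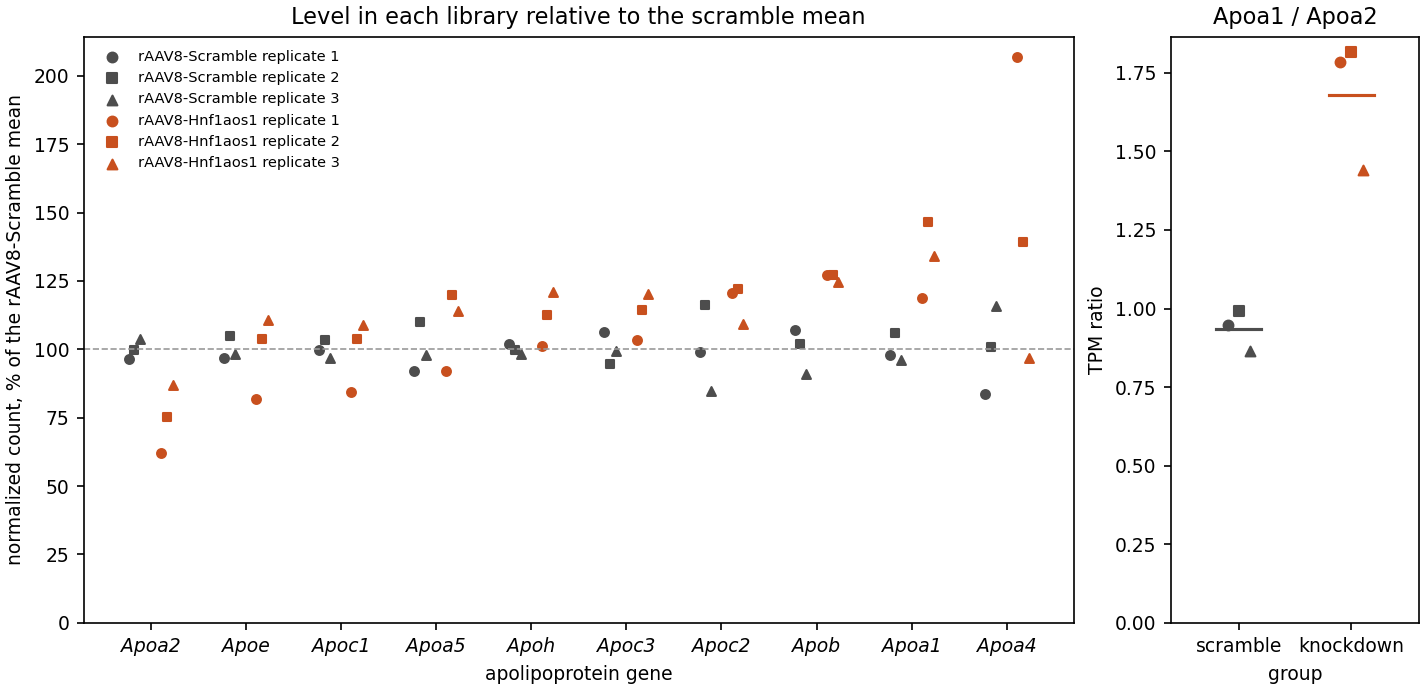
Left, normalized count of each member in each library as a percentage of its rAAV8-Scramble mean (dashed line at 100%), with members in order of fold change, grey for scramble and orange for knockdown. Right, the ratio of Apoa1 to Apoa2 in TPM per library with group means as bars; the 3 knockdown libraries lie between 1.44 and 1.82 and the 3 scramble libraries between 0.866 and 0.993.

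Apob encodes apolipoprotein B, of which 1 copy stays with each VLDL particle from assembly to uptake, and its long transcript took 1.77 to 2.34% of all gene counts. Normalized counts were 338147, 322247 and 286889 in the scramble livers and 402117, 401957 and 393333 in the knockdown livers. The knockdown livers lay close together, with a coefficient of variation of 1.26%, and all stood above the highest scramble liver. The log2 fold change was 0.34 (SE 0.119, 95% interval 0.08 to 0.60), or 126% of the scramble level, and the adjusted p by edgeR was 0.113. Alternative fits gave 0.26 to 0.54 with adjusted p-values of 0.0170 to 0.331, and 2 of 16 called it higher.

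For these 3 genes the bases just upstream of the annotated gene start are shown, because they are the members whose groups did not overlap and no 2 of them lie on the same chromosome. The stretches come from RefSeq promoters on GRCm38.p6, on the plus strand, and end at the base before the GENCODE gene start: chr9:46228380-46228579 for Apoa1, chr1:171224804-171225053 for Apoa2 and chr12:7977427-7977647 for Apob. Capitals mark TATAAA and CCAAT, the latter read on the other strand as ATTGG.
Apoa1: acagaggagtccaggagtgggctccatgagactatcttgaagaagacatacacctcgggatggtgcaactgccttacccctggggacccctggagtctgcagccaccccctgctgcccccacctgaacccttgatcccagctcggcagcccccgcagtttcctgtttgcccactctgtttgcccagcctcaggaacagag
Apoa2: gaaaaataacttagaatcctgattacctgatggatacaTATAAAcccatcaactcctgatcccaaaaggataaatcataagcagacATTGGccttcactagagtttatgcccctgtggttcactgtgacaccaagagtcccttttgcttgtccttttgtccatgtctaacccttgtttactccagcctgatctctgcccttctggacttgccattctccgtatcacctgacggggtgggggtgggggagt
Apob: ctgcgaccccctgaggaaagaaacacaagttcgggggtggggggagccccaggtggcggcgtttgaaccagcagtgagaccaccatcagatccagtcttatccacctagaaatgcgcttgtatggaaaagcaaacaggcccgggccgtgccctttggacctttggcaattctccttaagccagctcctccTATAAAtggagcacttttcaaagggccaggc
The windows searched ran from 250 bases before to 50 after each RefSeq start, on both strands, for 4 motifs: the TATA-box letters TATAAA, the letters CCAAT of the CCAAT box, and direct repeats of AGGTCA spaced by 1 base or by 4. Of the 10 members 8 had a window. Counted from the RefSeq start, TATAAA was found for Apob at -60 to -55, for Apoa2 at -212 to -207, and also for Apoa5 and Apoe. The RefSeq and GENCODE starts differ: 29 bases lie between the end of the stretch shown and the RefSeq start for Apob, 50 for Apoa1 and 0 for Apoa2. Neither AGGTCA repeat occurred in any member window, and the windows of Apoa1, Apoa4, Apoc2 and Apoh held none of the 4 motifs. Over 32851 promoter windows of the same length, TATAAA occurred in 13.6%, CCAAT in 37.4% and the AGGTCA repeats in 0.0396% and 0.0152%. These matches describe letters in the windows and were not tied to the expression values.

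Apoa1 lies in a cluster of 43340 bases on chromosome 9 with Apoc3, Apoa4 and Apoa5, in that order, with Apoc3 on the opposite strand (Apoa1 46228580 to 46230466, Apoc3 46232933 to 46235636, Apoa4 46240696 to 46243459 and Apoa5 46268633 to 46271919, GRCm38). All 4 log2 fold changes of the cluster were above 0, from 0.12 to 0.56, and Apoa1 was the 1 gene of the 4 whose groups did not overlap.

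Apoa4 encodes apolipoprotein A-IV, an abundant intestinal and minor hepatic apolipoprotein of chylomicrons and HDL. It varied most of all members, at 994, 1199.7 and 1378 normalized counts in the scramble livers and 2465, 1659 and 1154 in the knockdown livers. Knockdown replicate 1 was far above the scramble range, replicate 2 was above it and replicate 3 was inside it. Its log2 fold change of 0.56 was the largest of the 10 and the least certain (SE 0.300, 95% interval -0.19 to 1.31, adjusted p 0.329 by edgeR). Without knockdown replicate 3 it was 0.80 with an adjusted p of 0.0380, and without knockdown replicate 1 it was 0.23, so its size and its call depended on which knockdown liver was left out.

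Apoc3 encodes apolipoprotein C-III, an inhibitor of lipoprotein lipase and of remnant uptake. It was measured at 13333, 11875 and 12462 normalized counts in scramble livers and at 12983, 14382 and 15083 in knockdown livers. Replicates 2 and 3 of the knockdown group lay above the scramble range and replicate 1 within it. edgeR gave a log2 fold change of 0.17 (SE 0.103, 95% interval -0.05 to 0.40) with an adjusted p of 0.342.

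Apoa5 encodes apolipoprotein A-V, a rare plasma protein that promotes triglyceride clearance. It stood at 8610.1, 10276 and 9143 normalized counts in the scramble livers and at 8619, 11191 and 10666 in the knockdown livers. The lowest values of both groups were almost equal and the groups overlapped. The log2 fold change was 0.12 (SE 0.121, 95% interval -0.14 to 0.39) and the adjusted p 0.585 by edgeR.

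A cluster of 27610 bases on chromosome 7 holds Apoc2 (19671579 to 19677941), Apoc4, Apoc1 (19689481 to 19692660) and Apoe (19696109 to 19699188), all on the minus strand. Its log2 fold changes were between -0.02 and 0.23, and every gene of it overlapped between groups. Apoe encodes apolipoprotein E and had 77749, 84246 and 78873 normalized counts in the scramble livers and 65783, 83299.9 and 89003 in the knockdown livers. The knockdown group held both the lowest and the highest of the 6 values. The means of 80289 ± 3472 and 79362 ± 12100.5 (SD, n = 3) gave a log2 fold change of -0.02 (SE 0.130, 95% interval -0.30 to 0.27, adjusted p 0.952 by edgeR), an interval that runs from 81.1% to 120% of the scramble level.

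Apoc1, whose protein C-I inhibits lipoprotein lipase and remnant binding, followed Apoe closely. Normalized counts were 10438, 10807 and 10136 in the scramble livers and 8844, 10859.7 and 11379 in the knockdown livers. As for Apoe, knockdown replicate 1 was the lowest library and replicate 3 the highest. The log2 fold change was -0.01 (SE 0.113, 95% interval -0.26 to 0.23, adjusted p 0.955 by edgeR). The ratio of Apoc1 to Apoe in TPM was 0.574 ± 0.0149 for scramble and 0.576 ± 0.0147 for knockdown (SD, n = 3), with all 6 libraries between 0.563 and 0.592.

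Apoc2 encodes apolipoprotein C-II, the cofactor without which lipoprotein lipase is inactive. Counts of 765, 899 and 655 (normalized) in the scramble livers compare with 934, 945 and 846 in the knockdown livers. Of the 3 knockdown livers 2 lay above the scramble range and the other within it. The log2 fold change was 0.23 (SE 0.115, 95% interval -0.02 to 0.48) with an adjusted p of 0.254 by edgeR. GENCODE annotates a gene, Gm44805, that overlaps both Apoc2 and Apoc4 on the same strand and has no row in the count table, so the counts of Apoc2 and Apoc4 are uncertain where reads of the stretch were shared. Apoc4 itself had a log2 fold change of -0.01 (SE 0.0971).

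Apoh encodes apolipoprotein H, also known as beta-2-glycoprotein I, a phospholipid-binding plasma protein. It was the steadiest member in the scramble livers, at 19289.7, 18851 and 18590.2 normalized counts (coefficient of variation 1.87%), and stood at 19149.9, 21306 and 22880.4 in the knockdown livers. Replicates 2 and 3 of the knockdown group were above all scramble livers and replicate 1 was not. The log2 fold change was 0.16 (SE 0.104, 95% interval -0.07 to 0.39, adjusted p 0.387 by edgeR). Apoh (chromosome 11, 108343354 to 108414396) overlaps Prkca on the opposite strand. It also overlaps Gm11656 on the same strand, which has no row in the count table, so its counts are uncertain in the same way as those of Apoc2. Apoa4 and Apoa5 overlap annotated genes on the opposite strand that have no row either.

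**Figure D3:**
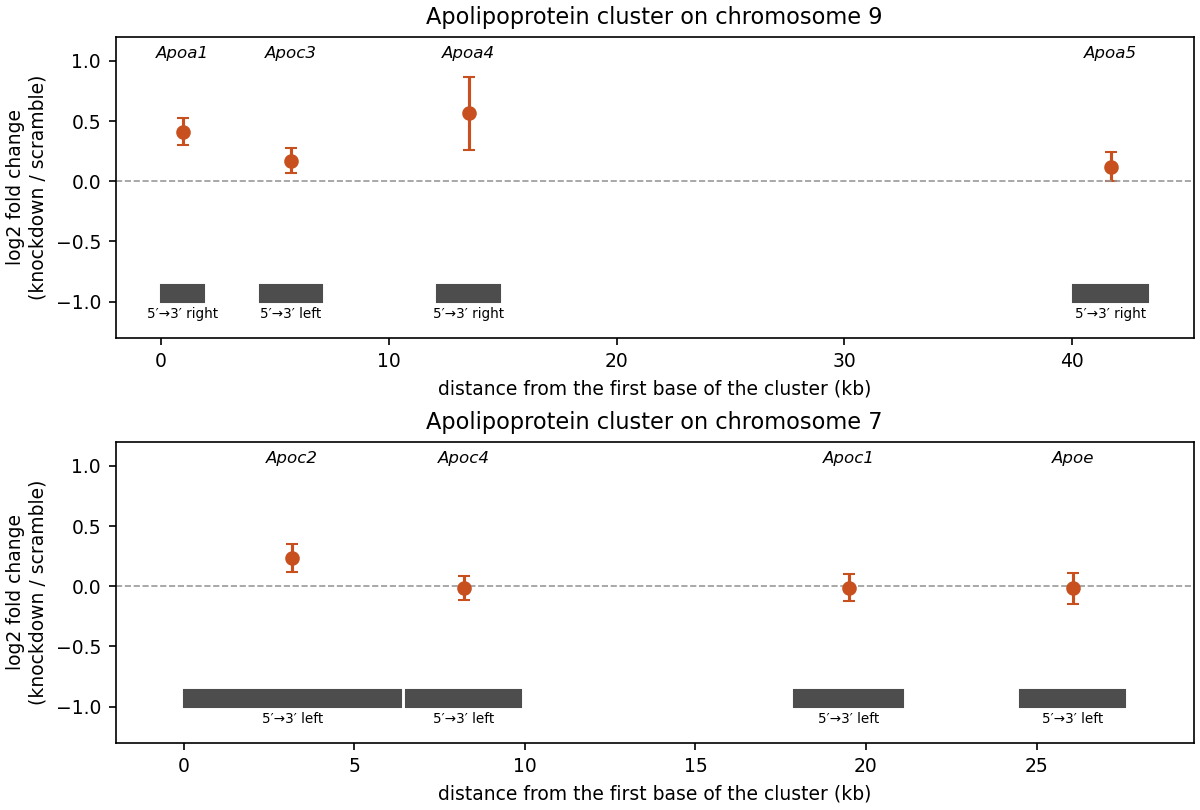
Log2 fold change, knockdown over scramble, with its SE as error bar (edgeR), above the position of each gene (grey boxes, with the direction of transcription) in the clusters on chromosomes 9 and 7, in kb from the first base of each cluster. The 4 genes on chromosome 9 lie between 0.12 and 0.56, and Apoc4, Apoc1 and Apoe on chromosome 7 lie within 0.02 of 0.

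The number of members called depended on the test and on how libraries were scaled. DESeq2, the tool the authors used, called 3 of 10 where it called 6.96% of all genes: Apoa1 (log2 fold change 0.42, adjusted p 0.00551), Apoa2 (-0.41, 0.0199) and Apob (0.34, 0.0230). edgeR without a filter on low counts called Apoa1 (adjusted p 0.00662) and Apoa2 (0.00481), against 6.92% of all genes. With library totals in place of TMM, Apoa2 alone was called (log2 fold change -0.49, adjusted p 0.0355), against 6.42% of all genes. Without knockdown replicate 1, Apoa1 was called (0.48, adjusted p 0.0384; 3.77% of all genes), and without knockdown replicate 3, Apoa2 (-0.54, adjusted p 0.0159) and Apoa4 were called (11.2% of all genes). edgeR with DESeq2's size factors, with a minimum mean of 50 counts or with a replicate block, limma's voom and limma on TPM called 0.

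Library sizes from the spike-ins raised the log2 fold changes of all genes together, and their median moved from -0.0004 to 0.20. Under this scaling 20.8% of all genes were called, and of the members Apoa1 (0.61, adjusted p 0.00980), Apob (0.54, 0.0170), Apoc2 (0.43, 0.0334) and Apoc3 (0.38, 0.0377) were called higher by edgeR. Set against the shifted median, these 4 lie above it, and Apoa2, at -0.21 with an adjusted p of 0.308, was the 1 member still below 0. Apoe and Apoc1, close to 0 under TMM scaling, stood at 0.18 and 0.19.

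**Figure D4:**
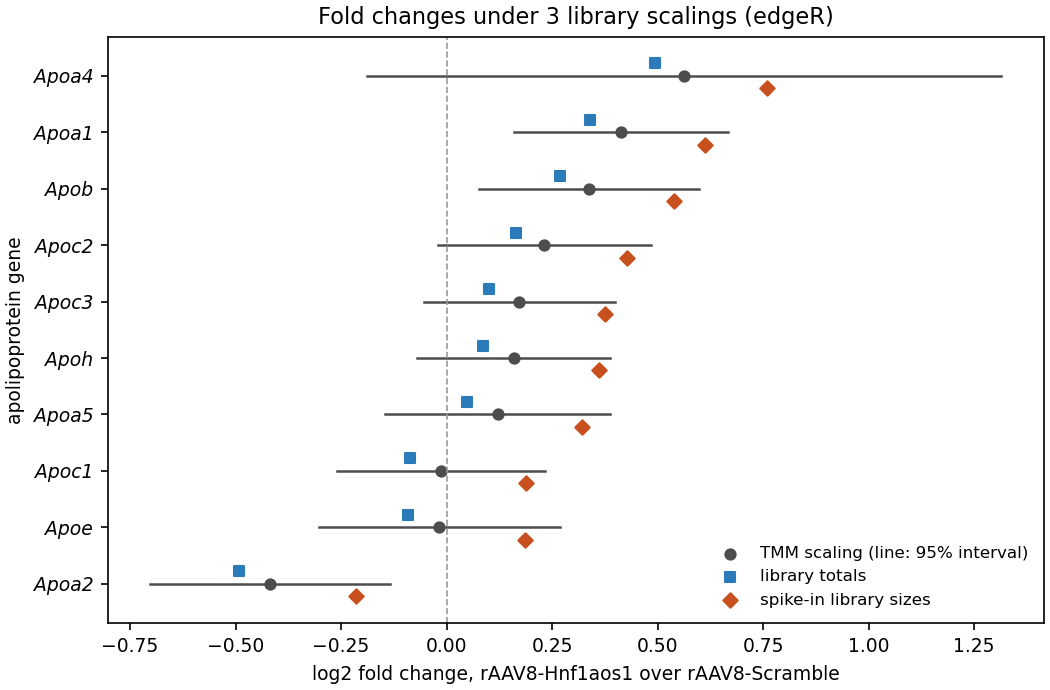
Log2 fold change of each member in edgeR under 3 library scalings: TMM (circles, with the 95% interval as a line), library totals (squares) and spike-in library sizes (diamonds). The intervals of Apoa1, Apob and Apoa2 under TMM do not cross 0, and spike-in sizes move every member to the right by a like amount.

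Together the 10 genes made up 2.61, 2.65 and 2.69% of all TPM in the scramble livers and 2.47, 2.73 and 2.80% in the knockdown livers. The groups overlapped, with means of 2.65 ± 0.0403% and 2.67 ± 0.174% (SD, n = 3), so a higher share of Apoa1 stood beside a lower share of Apoa2 at a near equal sum. As a share of raw counts, where the long Apob transcript weighs most, the sum was 3.21 ± 0.0751% and 3.58 ± 0.0763% (SD, n = 3) and did not overlap. Mitochondrial genes, which also enter the TPM total, took 12.2 ± 0.145% and 11.1 ± 0.219% of TPM, and without them the 10 genes made up 2.97 to 3.06% and 2.78 to 3.16%, again with overlap. Spike-ins entered the TPM total but not the raw-count total. They took 3.71 ± 0.216% of TPM in scramble and 3.06 ± 0.153% in knockdown livers (SD, n = 3), without overlap.

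For Apoa1 and Apoa2, the members with the smallest p, the tested genes with the most similar profile over the 6 libraries were found by the root-mean-square distance of log2 CPM after centring. This distance includes the difference between the groups, so fold changes like those of the member follow from the choice itself. Nearest to Apoa1 were Tomm7 (0.0449), Jagn1 (0.0480) and Ndufs6 (0.0504), with log2 fold changes of 0.33 to 0.36 and none called. Nearest to Apoa2 were Kyat1 (0.0269), which was not called, and BC024386 (0.0385) and Rhof (0.0452), which fell by 0.47 and 0.48 on the log2 scale with adjusted p-values of 0.0375 and 0.0377 by edgeR. Both have slightly larger fold changes than Apoa2 and smaller standard errors (0.114 and 0.117 against 0.130).

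The other genes of lipoprotein metabolism were read against the same 6.32% of all genes called. Of 17 further apolipoprotein genes 11 were tested, 3 rose and 0 fell, with a median log2 fold change of 0.15. Clu, which encodes clusterin, also called apolipoprotein J, rose by 0.45 (13474, 13883 and 12431 normalized counts against 18889.6, 19105 and 16178, adjusted p 0.0356). The Apol9b gene rose by 0.98 (adjusted p 0.0280) and Apol10b, at 3.29 to 5.13 normalized counts in the scramble livers and 14.5 to 51.3 in the knockdown livers, by 3.11 (adjusted p 0.0111). Apol10b passed the low-count filter only through the knockdown libraries, so its call says nothing on a direction of the list. With a minimum mean of 50 counts, 2 genes of the list were called. Apol9b has a close relative, Apol9a, and unique mapping could have lost reads of both. Apof, the lipid transfer inhibitor protein, was at 0.35 (adjusted p 0.0732) and Apod, a lipocalin, at -1.44 (adjusted p 0.0605), neither of them called.

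Of 27 genes for assembly and secretion of apolipoprotein B particles, 4 rose and 0 fell, and the median was -0.03. Apobec1, the cytidine deaminase that edits the Apob transcript to give the short B-48 form, rose from 431 to 530.4 normalized counts in the scramble livers to 757 to 881 in the knockdown livers (log2 fold change 0.76, SE 0.104, adjusted p 0.00361 by edgeR). Gene counts do not show the edited base, so the long and short forms of Apob could not be told apart here. Vmp1, an endoplasmic reticulum scramblase (0.80), Ces3b, a carboxylesterase (0.93), and Sec24d, a coat protein of secretory vesicles (0.38), also rose, with adjusted p-values of 0.0107, 0.00855 and 0.0392. Ces1d (-0.66, adjusted p 0.0527) and Tm6sf2, which takes part in VLDL lipidation (-0.40, adjusted p 0.0679), were not called. Mttp, which loads lipid onto apolipoprotein B and was named after its values were seen, was at -0.14 (SE 0.0946, adjusted p 0.403).

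Of 18 genes that remodel HDL and triglyceride, 2 rose and 0 fell, with a median of -0.03. Abca1, which hands cholesterol to apolipoprotein A-I, rose from 9134 to 10143 normalized counts in the scramble livers to 12466 to 14718 in the knockdown livers (log2 fold change 0.54, adjusted p 0.0154 by edgeR). Lpl, the lipase that C-II activates and C-III restrains, rose by 0.53 (adjusted p 0.0172). Lipg (-0.85, adjusted p 0.0567) and Lipc (-0.28, adjusted p 0.0873), the endothelial and hepatic lipases that act on HDL, were not called. Saa1 and Saa2, acute-phase apolipoproteins of HDL named after their values were seen, ranged from 68.1 to 99.0 and 63.6 to 147 normalized counts in the scramble livers and from 172 to 3741 and 173 to 6671 in the knockdown livers, with adjusted p-values of 0.176 and 0.187. Replicate 2 was the highest and replicate 3 the lowest knockdown liver for both, whereas Apoa1 was highest in replicate 2 and lowest in replicate 1.

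Of 15 uptake receptors 1 rose and 1 fell, with a median of 0.01. Vldlr, the VLDL receptor that binds apolipoprotein E, fell by 1.94 on the log2 scale, from 73.5 to 108 normalized counts in the scramble livers to 15.2 to 37.1 in the knockdown livers (adjusted p 0.00903 by edgeR). Lsr, the lipolysis-stimulated receptor, rose by 0.45 (adjusted p 0.0349). Scarb1, the HDL receptor (0.28, adjusted p 0.0987), and Sorl1 (0.48, adjusted p 0.124) were not called.

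Of 38 regulators of apolipoprotein genes 37 were tested, 1 rose and 2 fell, with a median of -0.09. Foxa3, a hepatic forkhead factor, rose by 0.57 (adjusted p 0.0445), and the lipogenic factors Srebf1 and Mlxipl fell by 0.56 and 0.69 on the log2 scale (adjusted p 0.0111 and 0.0303). Rxra (0.35, adjusted p 0.0686) and Onecut1 (2.19, adjusted p 0.0704) were not called. Hnf4a was at -0.08 (SE 0.122, adjusted p 0.724), with overlapping groups. Several of these list genes (Apol9b, Vmp1, Lpl, Abca1, Vldlr and Srebf1) were also named by the study from the same animals, so their counts are not independent evidence.

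**Figure D5:**
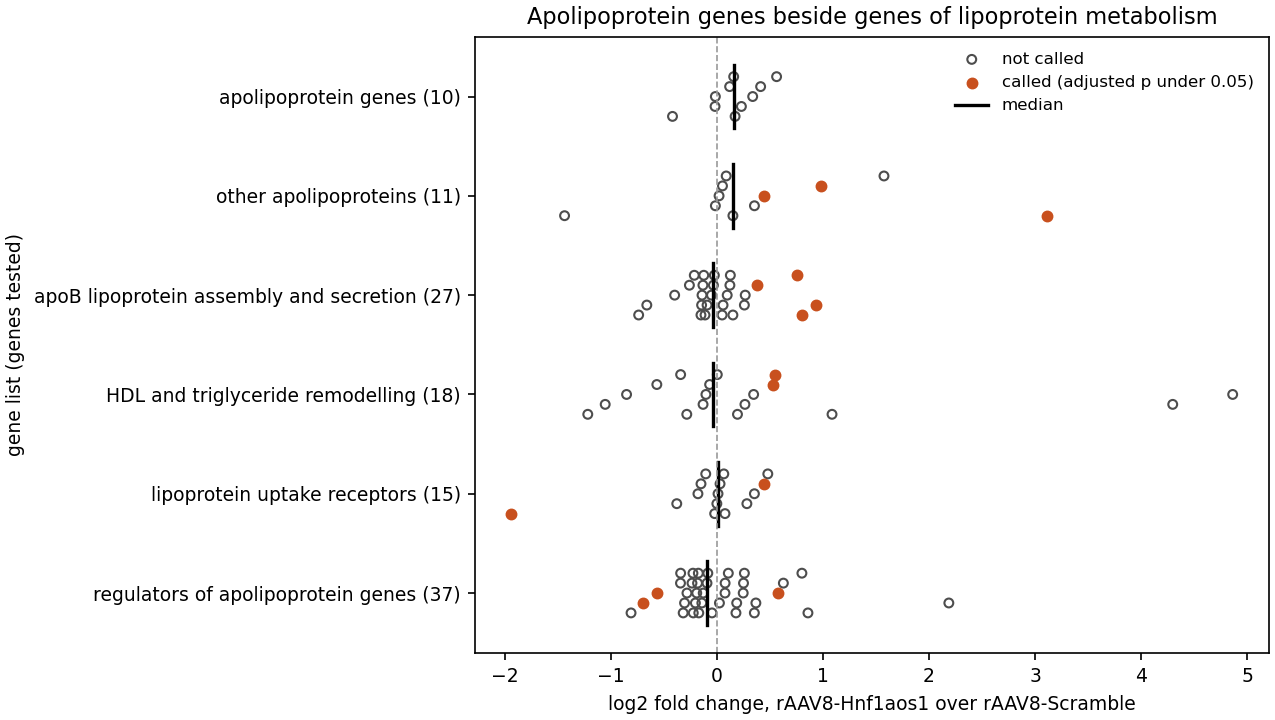
Log2 fold change of each tested gene (edgeR, knockdown over scramble) in the 10 apolipoprotein genes and in 5 lists of lipoprotein metabolism, with filled points for genes called and a bar at each median. No apolipoprotein member is filled, and the list medians lie between -0.09 and 0.17.

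Markers of other cells were read for RNA that hepatocytes may not have made. In whole liver, a change in the number of cells of a type and a change of RNA per cell cannot be told apart. Of 15 Kupffer cell and macrophage markers 5 rose (Clec4f, Lyz2, C1qa, C1qb and Adgre1) and 14 were above 0. Of all 16327 genes tested 6.32% were called in either direction and 8155 were above 0. The sum of all 15 was 5614 to 6490.4 normalized counts in the scramble livers and 7358 to 11243 in the knockdown livers. Mpeg1, named after its values were seen, weighed heavily in this sum. Its mean was 1099 in scramble and 3065 in knockdown livers, which ranged from 1564 to 4428, and it was not called (adjusted p 0.112 by edgeR). Macrophages also make apolipoprotein E and lipoprotein lipase, and the part of the rise in macrophage markers in the values of Apoe and Lpl was not tested. Of the 8 enterocyte markers 2 were tested and 0 called, and Sis was at 0 in every library, while Apob and Apoa4 are also intestinal genes. The sum of these markers was 244 to 495 normalized counts in scramble and 241 to 322 in knockdown livers. Most of it was Fabp2, named after its values were seen, at 220 to 473 and 220 to 291. Neutrophil markers never passed 12 counts for a gene in a library, with Ly6g and Mpo at 0, and their sum was 4.10 to 6.60 and 12.7 to 35.2 normalized counts. Lymphocyte, sinusoidal endothelial, stellate and cholangiocyte markers held 0 called genes among 7, 8, 8 and 4 tested.

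All 11 hepatocyte markers found in the table were expressed, which fits the labelled tissue. Alb was at 0.06 (SE 0.135, adjusted p 0.841 by edgeR), beside the plasma proteins Ahsg (0.52), Hpx (1.00) and Fgb (1.11), which rose, and Tat, which fell by 0.72 on the log2 scale. Hpx and Fgb are also acute-phase genes, and their part in the values of the apolipoproteins was not tested.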

How the data were processed

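RNA-seq counts and TPM values of 6 mouse liver libraries were used. Per the study's methods, the authors aligned reads with STAR to GRCm38 and used featureCounts on unique exonic reads; the deposited raw counts are whole numbers per gene, and the submitters' processing notes list GRCm39. The methods name a stranded poly(A) kit and the labels depletion of ribosomal RNA; the annotation and strand setting are not given in the sources used here. The authors also deposited TPM, whose computation is not described, normalized counts (not used here) and a comparison table of fold changes and p-values (not used here).

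From the raw counts, 92 spike-in rows were left out. Groups were compared in R 4.3.3 with edgeR 4.0.16 (TMM, filterByExpr, robust quasi-likelihood fits, group as the only term, Benjamini-Hochberg adjustment over 16327 genes). Intervals are 95% intervals from the moderated degrees of freedom. Alternatives used DESeq2 1.42.0, limma 3.58.1 (voom, or log2 of TPM plus 0.1 or 1), other scalings and filters, and each library left out. Scripts were tested on simulated data. Libraries of the same group differed by 7.68 or more per gene in a chi-square comparison, so none was a repeat of another. Coordinates are from GENCODE M21 (GRCm38) by symbol, and figures were drawn with matplotlib 3.10.9.

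The members and lists were chosen with earlier results of these data known. The genes named are the 10 members, Hnf1aos1, Hnf4a, the called genes of each list with the 2 uncalled ones of smallest p, and the 3 nearest profiles of 2 members; others are marked, and 1 gene of this rule with 1 motif is not reported here.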

Additional observations from a re-analysis of the deposited data

How the results depend on the processing

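There were 3 mice per group, and the common biological coefficient of variation was 13.9%. Members called numbered 0 by edgeR, 3 with DESeq2, 1 with library totals, 4 with spike-in sizes, 2 without a low-count filter and 0 to 2 with each library left out. The direction of 8 members held under all 16 alternatives. Apoc1 and Apoe turned positive with spike-in sizes (0.19 and 0.18), without scramble replicate 2 (0.0048 and 0.0136) and without knockdown replicate 1 (0.0806 and 0.0942), while their lowest values with a library left out were -0.0838 and -0.1044.

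Calls among the other apolipoproteins (11 tested in the main fit) went from 3 to 5 with DESeq2, spike-in sizes or no filter. They went to 2 with a minimum mean of 50 counts and to 0 to 4 with a library left out. The fit without a filter also tested listed genes outside the 11, and its 5 calls were 4 higher and 1 lower. Assembly genes went from 4 to 8 with spike-in sizes and to 1 to 6 with a library left out. Remodelling genes went from 2 to 6 with DESeq2, 5 with spike-in sizes, 4 without a filter or with voom, 1 with limma on log2(TPM + 1), and 0 to 5 with a library left out. Receptors went from 2 to 1 with library totals or either TPM fit, 4 with spike-in sizes and 0 to 3 with a library left out. Regulators went from 3 to 9 with DESeq2, 11 with spike-in sizes, 6 without a filter and 0 to 7 with a library left out. The lowest counts of all 5 lists came without scramble replicate 3, a fit that called 103 genes in all (tied at 0 without scramble replicate 2 for remodelling genes and without knockdown replicate 2 for regulators), and the highest without knockdown replicate 3 (1881 genes). The share of the 10 members differed by 0.0188 points in TPM (0.365 in raw counts, -0.0488 to 0.117 with a library left out). Causes were not tested.

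Same-numbered libraries did not deviate together (correlations of -0.0226, 0.0231 and 0.00321). The labels give only a replicate number, so whether the mice were paired is not known. A weak pairing would not show in these correlations. With the replicate number as a block 0 members and 878 genes in all were called, against 1032, and Apoa1 had an adjusted p of 0.0887.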
